A study of Mus musculus with 12 samples.

Results

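The 10 genes Ugt2a3, Ugt2b1, Ugt2b5, Ugt2b34, Ugt2b35, Ugt2b36, Ugt2b37, Ugt2b38, Ugt3a1 and Ugt3a2 are the Ugt2 and Ugt3 glucuronosyltransferase genes with reads in mouse liver, and they were chosen by symbol among the 24062 genes of the count tables. The tables also list Ugt2a1 and Ugt2a2, which had 0 reads in every mouse. The livers came from female C57BL/6J mice, obtained at 6 weeks of age, acclimated for 2 weeks and moved from chow to the control diet 3 days before the experiment. All mice were wild type, and for 10 days 1 group stayed on the control diet while the other ate a matched diet that delivered BIBB-515 at 55 mg/kg of body weight. The compound blocks lanosterol synthase, which closes the sterol ring in cholesterol synthesis. The study kept 11 mice per diet, of which 6 per diet, numbered as separate samples in the labels, had the RNA-seq libraries analysed here. Each library held between 22764819 and 31058370 reads counted on genes. Levels are given as CPM, reads scaled to library size after TMM normalization between libraries, and changes as log2 fold changes of BIBB-515 over control from edgeR's quasi-likelihood test, with FDR adjusted over all 12481 genes tested and 0.05 as the threshold.

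Glucuronosyltransferases sit in the endoplasmic reticulum and join a sugar from a UDP-sugar to a small fat-soluble molecule, which makes it soluble enough for bile or urine. The Ugt2 enzymes use UDP-glucuronic acid and act on steroids, bile acids, fatty acids and many drugs. The Ugt3 enzymes are a small sister family, and their human counterparts use other sugar donors, such as UDP-N-acetylglucosamine, UDP-glucose and UDP-xylose. In liver the hepatocyte makes most of these enzymes, and several Ugt2b genes are known targets of the receptors that sense drugs and bile acids.

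The 8 Ugt2 genes lay in a single row on chromosome 5 from 86889770 to 87424203 (mm10), 534434 bases with no other counted gene between them, and Ugt3a1 and Ugt3a2 lay side by side on chromosome 15 from 9279829 to 9370870. Each Ugt2 gene had 6 exons and each Ugt3 gene 7. The coding sequences separated the Ugt2b genes into a close set and a more distant pair. Ugt2b5, Ugt2b35, Ugt2b36, Ugt2b37 and Ugt2b38 were between 85.9% and 97% identical base by base, with Ugt2b5 and Ugt2b38 the closest at 97%. Ugt2b1 and Ugt2b34 were 75.3% identical to each other and at most 74.4% identical to any gene of the close set. Ugt3a1 and Ugt3a2 were 93.2% identical.

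The region just before the start of transcription is shown for the 3 genes that rose with BIBB-515 (Ugt2b34, Ugt2b35 and Ugt2b36) and for 3 near copies that did not pass the test, since the windows of the near copies are alike and those of the 3 risen genes are not. Each window holds the 250 bases before the start, 5′ to 3′ on the gene's strand, from RefSeq (GRCm38.p6). Capitals mark the nuclear receptor hexamers AGGTCA and AGTTCA, the HNF1 element GTTAAT and the TATA box TATAAA, each searched on both strands.
Ugt2b34, chr5:86906938-86907187 (minus strand): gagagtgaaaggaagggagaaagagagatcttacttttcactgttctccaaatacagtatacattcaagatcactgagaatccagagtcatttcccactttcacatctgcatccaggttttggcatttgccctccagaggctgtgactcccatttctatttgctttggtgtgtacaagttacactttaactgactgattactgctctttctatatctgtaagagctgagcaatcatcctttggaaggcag
Ugt2b35, chr5:87000610-87000859 (plus strand): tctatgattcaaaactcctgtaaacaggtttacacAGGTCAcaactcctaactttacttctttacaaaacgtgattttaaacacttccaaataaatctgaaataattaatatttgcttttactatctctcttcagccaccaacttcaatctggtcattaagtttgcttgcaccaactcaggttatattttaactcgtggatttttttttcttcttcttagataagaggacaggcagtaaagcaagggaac
Ugt2b36, chr5:87092556-87092805 (minus strand): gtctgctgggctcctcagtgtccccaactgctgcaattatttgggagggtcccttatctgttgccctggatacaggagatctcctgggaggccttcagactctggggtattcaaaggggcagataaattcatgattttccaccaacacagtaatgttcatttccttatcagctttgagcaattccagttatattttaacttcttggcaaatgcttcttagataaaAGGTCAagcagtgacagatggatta
Ugt2b5, chr5:87140341-87140590 (minus strand): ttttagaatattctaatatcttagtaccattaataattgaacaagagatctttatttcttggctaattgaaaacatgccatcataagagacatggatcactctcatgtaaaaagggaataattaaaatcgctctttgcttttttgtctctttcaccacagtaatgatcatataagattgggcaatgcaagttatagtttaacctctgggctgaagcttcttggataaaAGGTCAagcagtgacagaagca
Ugt2b37, chr5:87254789-87255038 (minus strand): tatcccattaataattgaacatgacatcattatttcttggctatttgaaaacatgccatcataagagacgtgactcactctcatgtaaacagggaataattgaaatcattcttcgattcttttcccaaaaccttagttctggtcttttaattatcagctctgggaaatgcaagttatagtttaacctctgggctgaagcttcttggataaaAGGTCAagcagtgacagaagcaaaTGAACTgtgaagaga
Ugt2b38, chr5:87424204-87424453 (minus strand): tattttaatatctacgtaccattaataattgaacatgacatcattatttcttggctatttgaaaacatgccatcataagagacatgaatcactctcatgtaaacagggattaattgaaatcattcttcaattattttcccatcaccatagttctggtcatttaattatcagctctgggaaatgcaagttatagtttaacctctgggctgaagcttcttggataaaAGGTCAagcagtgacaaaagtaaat

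The windows of Ugt2b37 and Ugt2b38 were 89.6% identical, and those of Ugt2b5 and Ugt2b38 were 84.8% identical. These 3 windows shared an unbroken run of 62 bases, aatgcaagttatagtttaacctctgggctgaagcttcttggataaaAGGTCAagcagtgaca, which was found in 3 of the 32851 windows of the table, those of these 3 genes. Ugt2b36 kept 22 bases of it, gataaaAGGTCAagcagtgaca, and no window beyond these 4 genes held that shorter run. By contrast, the windows of Ugt2b34, Ugt2b35 and Ugt2b36 were between 52% and 54% identical to each other, and their longest common run was 7 bases. AGGTCA was present in 5 of the 9 members' windows, those of Ugt2b5, Ugt2b35, Ugt2b36, Ugt2b37 and Ugt2b38, against 14% of all windows. In all of these but Ugt2b35 it lies within the shared run of 22 bases. These 4 windows are therefore copies of 1 occurrence, and the 2 shares do not compare as independent counts. Of the genes that rose, Ugt2b34 held none of the 4 motifs in its window. AGTTCA was found in 1 of 9 windows (11.8% of all windows), GTTAAT in 2 of 9 (6.43%) and TATAAA in 1 of 9 (12.4%). RefSeq gave no window for Ugt3a2.

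In control livers the members spanned a wide range of levels. Levels of different genes were compared as CPM per kilobase of exon, since a longer transcript collects more reads. Ugt2b36 stood first at 225 ± 13.7 CPM per kilobase (SD, n = 6), followed by Ugt2b5 at 187 ± 36.3 CPM per kilobase and Ugt3a2 at 148 ± 16.7 CPM per kilobase. Ugt2b34 had 118 ± 22.8 CPM per kilobase, Ugt2a3 93.8 ± 13.4 and Ugt2b1 84.3 ± 10.8. Neighbors in this order overlapped between mice down to Ugt2b1, and Ugt2a3 exceeded Ugt2b1 in only 3 of 6 control mice. The next 2 steps were clear of overlap in the control mice. Ugt2b35 had 22.4 ± 2.93 CPM per kilobase and Ugt3a1 11.8 ± 3.15 CPM per kilobase. Ugt2b37 followed at 6.23 ± 4.72 CPM per kilobase, overlapping Ugt3a1, and Ugt2b38 was last at 0.318 ± 0.244 CPM per kilobase. The 3 genes with the shared promoter run thus stood at 187, 6.23 and 0.318 CPM per kilobase. In the control mice 6 of the 10 members exceeded at least 93.7% of all tested genes per kilobase, whereas Ugt2b38 exceeded 3.48% of them.

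**Figure D1:**
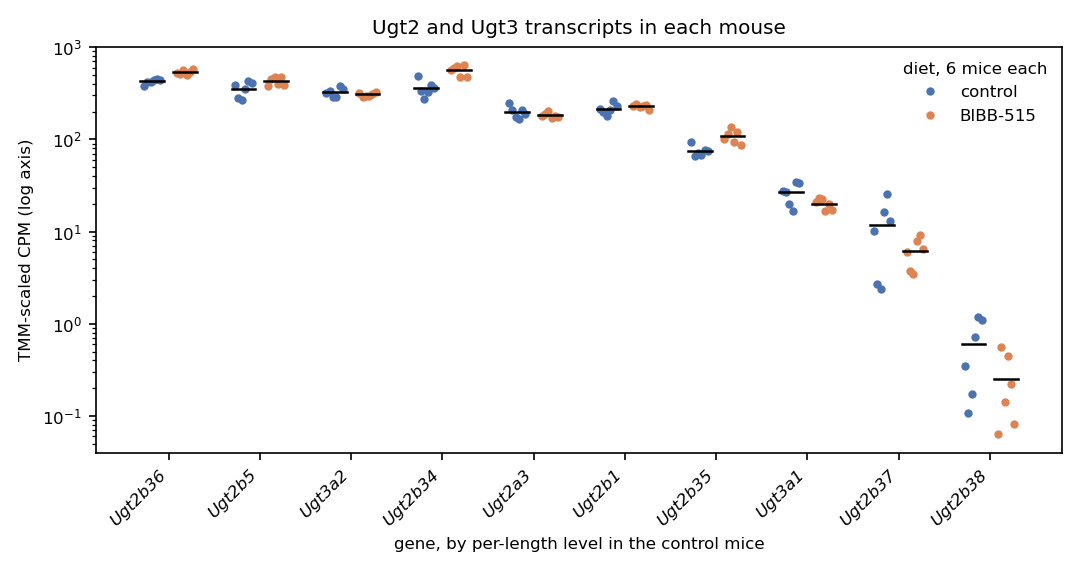
Level of each member in each mouse, as TMM-scaled CPM on a log axis, with genes on the horizontal axis in the order of their per-length level in control mice. Points are single mice (6 per diet) and black bars are means. Ugt2b36 is the gene whose BIBB-515 mice (502 to 572 CPM) all lie above the control mice (380 to 451 CPM).

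With BIBB-515, 3 of the 10 members rose and none fell. The 3 were Ugt2b34, Ugt2b35 and Ugt2b36, and among all tested genes 7.18% were called higher and 6.48% lower. The median log2 fold change of the members was 0.00, beside -0.01 over all tested genes, because 5 members had positive and 5 negative values. Without adjustment 4 members had a p under 0.05 on the higher side and 1 on the lower side, beside 29.7% of all tested genes in either direction, and DESeq2 in place of edgeR called 3 higher and 0 lower. Values without overlap between the diets were seen for 1 member on the higher side (4.35% of all tested genes) and for 0 on the lower side (2.72%).

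Ugt2b34 had the largest rise. The control mice 1 to 6 had 480, 332, 276, 327, 385 and 363 CPM, and the BIBB-515 mice 6 to 11 had 559, 588, 625, 472, 632 and 474 CPM. The highest control mouse, mouse 1, lay just above the lowest BIBB-515 mice, and 4 of 6 BIBB-515 mice lay above every control mouse. The means were 360 ± 69.5 CPM and 558 ± 71.1 CPM (SD, n = 6 each), a 1.55-fold difference of means. On the log2 scale the change was 0.63 with a standard error of 0.12 (FDR 0.00405), and a two-sided exact permutation test gave p = 0.00649.

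Ugt2b35, a member of the close coding set with a much lower level, rose to a similar degree. The control mice had 93.4, 66.0, 71.5, 68.0, 77.4 and 74.7 CPM and the BIBB-515 mice 99.5, 114, 137, 92.4, 120 and 86.4 CPM. The overlap again came from control mouse 1, which exceeded 2 BIBB-515 mice. From 75.2 ± 9.85 CPM to 108 ± 19.1 CPM (SD, n = 6 each) the means differed 1.44-fold. On the log2 scale it changed by 0.53 with a standard error of 0.11 (FDR 0.00765), with an exact permutation p = 0.00649. Without control mouse 1, neither Ugt2b34 nor Ugt2b35 overlapped between the diets, and their log2 fold changes were 0.73 and 0.60.

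Ugt2b36, the member with the highest per-length level as counted, had the smallest rise of the 3 and the least spread. The control mice had 380, 413, 423, 440, 451 and 444 CPM and the BIBB-515 mice 525, 513, 561, 502, 541 and 572 CPM. Every BIBB-515 mouse lay above every control mouse. The means were 425 ± 25.9 CPM and 536 ± 27.4 CPM (SD, n = 6 each), a 1.26-fold difference. The estimate was 0.33 on the log2 scale with a standard error of 0.06 (FDR 0.00397), and the exact permutation p of 0.00216 is the smallest that 6 mice against 6 allow. The coefficient of variation among control mice was 6.10% for Ugt2b36 and 19.3% for Ugt2b34.

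Ugt2b5 did not pass the test, although each BIBB-515 mouse exceeded the control mean. The control mice had 388, 277, 264, 353, 427 and 410 CPM and the BIBB-515 mice 380, 453, 477, 402, 470 and 388 CPM. In the control group mice 2 and 3 were low, and the diets overlapped. The log2 fold change of 0.28 had a 95% interval from 0.02 to 0.54 and an FDR of 0.137, so a rise as large as that of Ugt2b36 lies within its interval. Ugt2b1 had 214 ± 27.5 CPM in control and 229 ± 12.2 CPM in BIBB-515 mice (SD, n = 6 each), a log2 fold change of 0.09 with an interval from -0.08 to 0.27.

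The other 5 members had lower means with BIBB-515 and did not pass the test. Ugt2a3 had 199 ± 28.4 CPM in control and 181 ± 11.3 CPM in BIBB-515 mice (log2 fold change -0.13, interval -0.32 to 0.06, FDR 0.348). Ugt3a2 had 324 ± 36.7 and 306 ± 16.1 CPM (log2 fold change -0.08, interval -0.25 to 0.08, FDR 0.511). For both genes the interval excludes a rise of the size estimated for Ugt2b36. Ugt3a1 had 27.7, 26.9, 19.9, 16.7, 34.3 and 33.5 CPM in the control mice and 21.0, 23.3, 22.3, 16.9, 20.0 and 17.0 CPM in the BIBB-515 mice. All 6 BIBB-515 mice lay under the control mean of 26.5 CPM, but the diets overlapped and the FDR was 0.106 (log2 fold change -0.40, interval -0.73 to -0.06). Without control mouse 4 the FDR of Ugt3a1 was 0.0261.

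Ugt2b37 was the most uneven of the members with more than 1 CPM. The control mice had 10.1, 2.71, 2.36, 16.3, 25.8 and 12.9 CPM and the BIBB-515 mice 5.96, 3.76, 3.50, 7.85, 9.14 and 6.45 CPM. Control mice 2 and 3 were below every BIBB-515 mouse, and control mice 1, 4, 5 and 6 were above every BIBB-515 mouse. The log2 fold change was -0.94 with an interval from -1.94 to 0.07 (FDR 0.198). Without control mouse 5 it was -0.54. Ugt2b38 had between 2 and 27 reads per mouse, which is too few to locate a change (log2 fold change -1.20, interval -2.48 to 0.07, FDR 0.194).

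**Figure D2:**
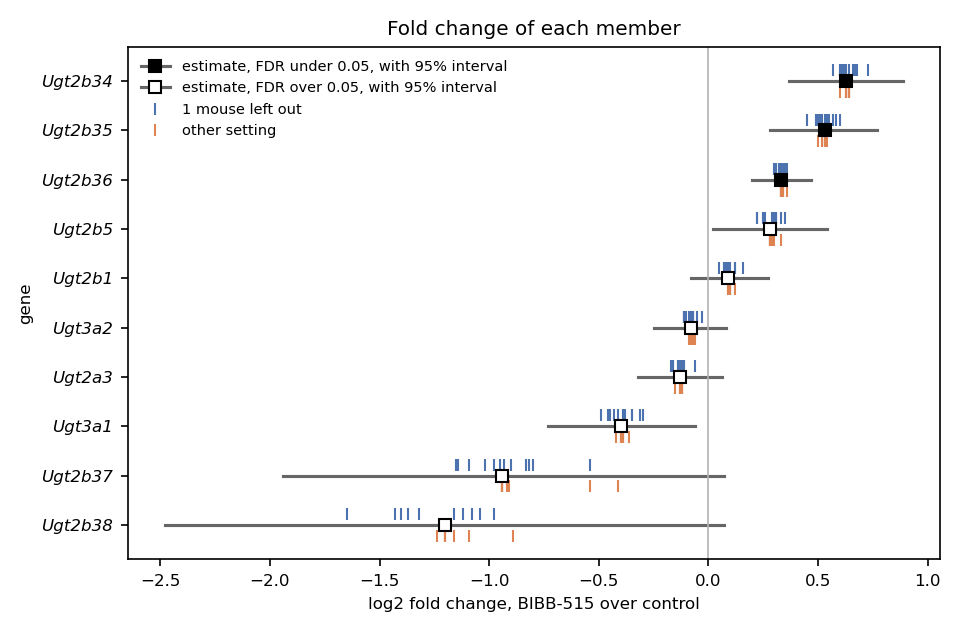
Log2 fold change of BIBB-515 over control for each member (squares, filled where the FDR is under 0.05) with its 95% interval. Blue ticks are fits that leave out 1 mouse and orange ticks are fits with another setting. Ugt2b34, Ugt2b35 and Ugt2b36 stay right of 0 in every fit, and the widest intervals are those of Ugt2b37 and Ugt2b38.

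Because a gene past the threshold and a gene short of it need not differ, the ratios of members within a mouse were compared too, for all 45 pairs, a test chosen after the results above were seen. With p-values adjusted over the 45 ratios, 19 pairs differed between the diets. All 45 ratios come from the same 10 genes, so they are not independent. No share was computed for pairs of other genes, so the count is not a trait of these members. The ratio of Ugt2b34 to Ugt3a1 rose by 1.00 on the log2 scale, and the ratio of Ugt2b36 to Ugt3a2 by 0.41, both without overlap between the diets (two-sided exact permutation p = 0.00216, adjusted p = 0.0162). Ugt2a3 fell relative to Ugt2b34 by 0.76, to Ugt2b35 by 0.64 and to Ugt2b36 by 0.45, with the same p-values. The 3 risen genes were not told apart from each other by this test, with adjusted p = 0.163 for Ugt2b34 against Ugt2b35 and adjusted p = 0.123 for Ugt2b34 against Ugt2b36 (exact permutation). Ugt2b36 and Ugt2b5 had nearly the same ratio in both diets (difference in log2 ratio of Ugt2b5 to Ugt2b36 -0.04, adjusted p = 0.812, exact permutation).

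The sum of the members' per-length levels was 896 ± 93.0 CPM per kilobase in control and 1053 ± 58.5 CPM per kilobase in BIBB-515 mice (SD, n = 6 each). The control mice ranged from 768 to 1015 and the BIBB-515 mice from 975 to 1124 CPM per kilobase, so the sums overlapped. Ugt2b34 took a mean share of 13.1% of the sum in control mice and 17.4% in BIBB-515 mice. The share of Ugt3a2 went from 16.5% to 13.3% and that of Ugt2a3 from 10.5% to 8.15%. Per kilobase, Ugt3a2 exceeded Ugt2b34 in 5 of 6 control mice and in 0 of 6 BIBB-515 mice. Ugt2b36 had the largest mean share in both diets as counted, 25.3% in control and 27.0% in BIBB-515 mice.

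**Figure D3:**
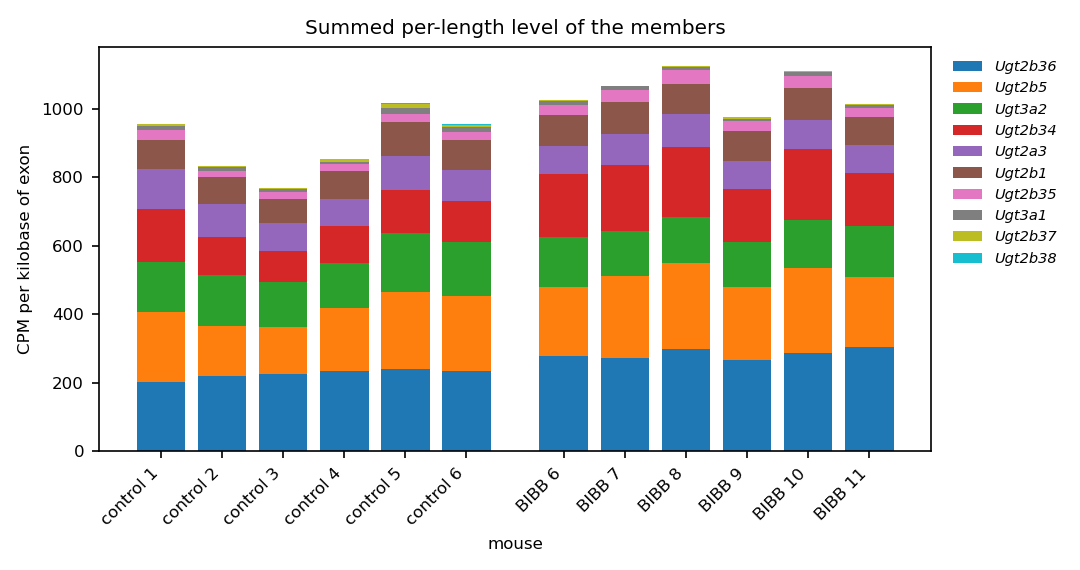
CPM per kilobase of exon of the 10 members stacked for each mouse, with control mice on the left and BIBB-515 mice on the right. The height of a bar is the sum over members, 768 to 1015 in control mice and 975 to 1124 in BIBB-515 mice. The red segment is Ugt2b34, whose mean share is 13.1% in control and 17.4% in BIBB-515 mice.

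Reads that map to several places were not counted, so the near copies can lose reads where their sequences coincide. Of the 50-base words in GENCODE transcripts of Ugt2b5, 41.7% also occur in transcripts of other genes, most of them in Ugt2b38. The share was 37.4% for Ugt2b38, 18.3% for Ugt2b37, 7.60% for Ugt3a1 and 7.01% for Ugt3a2. It was 1.44% for Ugt2b34, 0.303% for Ugt2b35 and 0.285% for Ugt2b36, so the counts of the 3 risen genes come almost entirely from sequence of their own. In Ugt2b5 the shared words lie mainly in exon 1, where 79.8% of words are shared and the control level was 59 CPM per kilobase of that exon, while in exon 6, with 7.64% shared, it was 311 CPM per kilobase. The same 2 exons of Ugt2b36, with 0.425% and 0% shared, had 126 and 303 CPM per kilobase. Exon 1 was also below exon 6 in Ugt2b1, with 0% shared in both, at 50.5 and 108 CPM per kilobase in control mice. The summed level of Ugt2b5, and its share of the members' sum, may be low estimates. How many reads were lost was not measured, and the read length is not given. When primary alignments were counted, Ugt2b5 had 0.0169% more reads over all mice. In exon 3, where neither gene shares words, Ugt2b5 had 427 and Ugt2b36 560 CPM per kilobase of that exon in control mice, and 514 and 694 in BIBB-515 mice. The values of Ugt2b37 and Ugt2b38 are uncertain for the same reason.

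The change had the same direction in every exon of each risen gene, though not the same size. Over the 6 exons the log2 ratio of mean exon CPM was between 0.58 and 0.81 for Ugt2b34, between 0.50 and 0.76 for Ugt2b35 and between 0.28 and 0.40 for Ugt2b36. For Ugt2b36, 5 of 6 exons had every BIBB-515 mouse above every control mouse. Ugt2b5 had ratios from 0.24 to 0.36 and showed no step between its shared exon 1, at 0.27, and its exon 3, with 0% shared words and a ratio of 0.27. All 6 exons of Ugt2b37 were below 0, from -1.06 to -0.69, and so were all 7 exons of Ugt3a1, from -0.59 to -0.16. No exon of Ugt2b38 had enough reads. Exon counts include a spliced read in each exon it touches, so the exons of 1 gene are not independent.

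**Figure D4:**
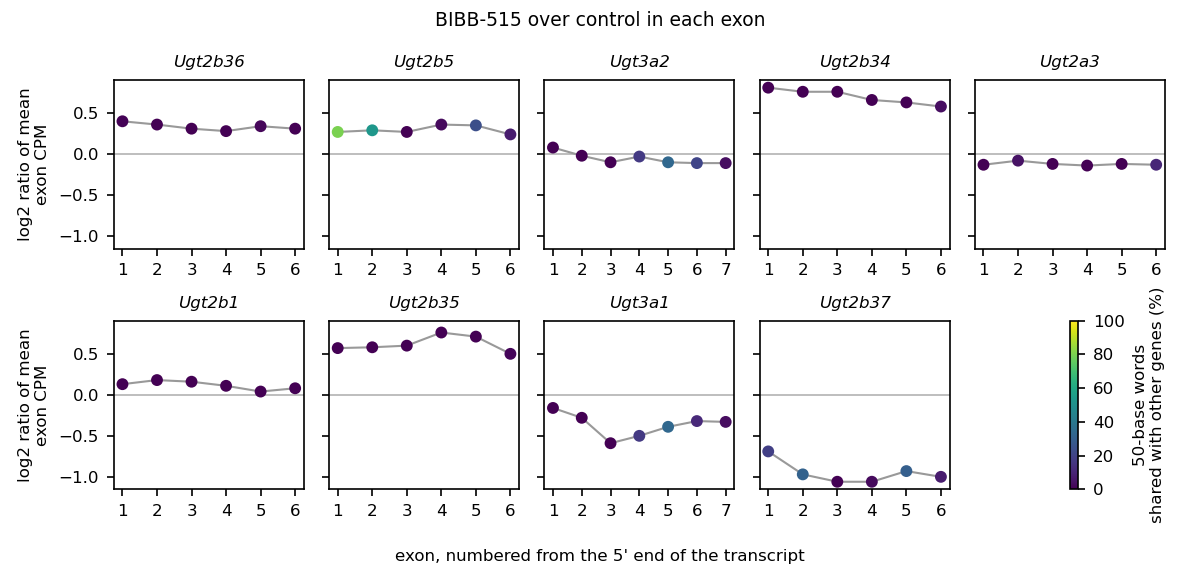
Log2 ratio of mean exon CPM, BIBB-515 over control, for each counted exon of 9 members, with exons numbered from the 5′ end. The color gives the percent of 50-base words of the exon that also occur in transcripts of other genes. Ratios run from 0.28 to 0.40 in Ugt2b36 and from 0.24 to 0.36 in Ugt2b5, whose exon 1 is the most shared, more widely in Ugt3a1 (-0.59 to -0.16), and to both sides of 0 in Ugt3a2 (-0.11 to 0.08).

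Pearson's r between members was mostly positive among control mice and mixed among BIBB-515 mice. It was above 0 for 41 of 45 pairs within the 6 control mice and for 26 of 45 within the 6 BIBB-515 mice, where Ugt2b37 was below 0 with 8 of the other 9 members and Ugt3a2 with 7. Over both diets, r of the residuals of log2(CPM + 0.5) from the diet means over 12 mice was above 0 for 39 of 45 pairs, with a median of 0.35. It was 0.83 for Ugt2b34 with Ugt2b35, 0.82 for Ugt2b34 with Ugt2a3 and 0.84 for Ugt2b1 with Ugt2b5. Of all tested genes, 0.585% had a higher r with Ugt2b34 than Ugt2b35 did. Ugt2b36 had r between -0.41 and 0.35 with the other 9 members. Within the BIBB-515 mice alone Ugt2b37 and Ugt2b38 had an r of -0.11, against 0.91 in the control mice, both over 6 mice. These points share libraries, livers and scaling, and r over so few mice is a description.

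**Figure D5:**
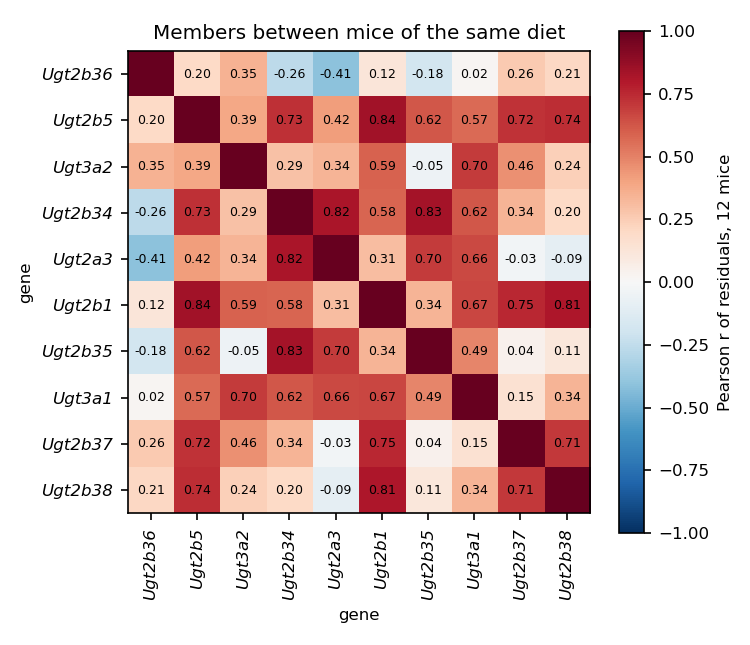
Pearson's r between members, computed on residuals of log2(CPM + 0.5) from the diet means over 12 mice, in the gene order of the level plot. Red is positive and blue negative. The row of Ugt2b36 lies between -0.41 and 0.35, while Ugt2b34 has 0.83 with Ugt2b35 and 0.82 with Ugt2a3.

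The tested genes whose residuals were most like those of Ugt2b34 were Dock4 (r 0.92 over 12 mice), Baat (0.92) and Rnf128 (0.91). Baat encodes the enzyme that joins bile acids to taurine. Dock4, Baat and Rnf128 did not pass the test for diet. For Ugt2b35 they included Akr1c14 (0.93) and 4930480G23Rik (0.91, a gene with a control level of 0.922 CPM), and Akr1c14, an aldo-keto reductase, rose with a log2 fold change of 0.60 (FDR 0.000938). For Ugt2b36 they were Tomm6 (0.94) and Ndufa3 (0.90), subunits of the mitochondrial import channel and of respiratory complex I, and AU019823 (0.89), with FDR values of 0.201, 0.937 and 0.0502. These genes have the highest r among 12481 tested genes over only 12 mice, so high values are to be found among so many. The likeness is a description, and a shared role was not tested.

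Genes near the clusters were mostly not called. Within 500000 bases of the Ugt2 row, 4 other genes were tested, which are named after their values were seen. Ythdc1, which lies before Ugt2b34 and encodes a reader of methylated RNA, was lower (30.3 ± 3.91 CPM in control and 25.3 ± 1.48 CPM in BIBB-515 mice, log2 fold change -0.26, FDR 0.0480). The 3 sulfotransferase genes on the other side, Sult1b1, Sult1d1 and Sult1e1, had log2 fold changes of 0.11, 0.02 and 0.37 with FDR values of 0.373, 0.946 and 0.745. Of 4 other tested genes within the same distance of the Ugt3 pair, 0 passed the test, with FDR values between 0.292 and 0.771. The 3 risen genes were not an unbroken block within the row, since Ugt2b1, at 0.09, lies between Ugt2b34 and Ugt2b35. By sign alone the row did split. Ugt2b34, Ugt2b1, Ugt2b35, Ugt2b36 and Ugt2b5 lie in sequence with log2 fold changes above 0. Ugt2b37, Ugt2a3 and Ugt2b38 follow at -0.94, -0.13 and -1.20, none of them past the threshold. A link between position and change was not tested.

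The sugar donor of the Ugt2 enzymes comes from glucose through UDP-glucose. Of 10 genes of this supply, 1 rose and 2 fell, with a median log2 fold change of 0.11. The riser was Ugdh, which oxidizes UDP-glucose to UDP-glucuronic acid, from 79.8 ± 35.2 CPM to 344 ± 60.0 CPM (SD, n = 6 each), a rise of 2.11 on the log2 scale with a standard error of 0.23 (FDR 4.33e-05), without overlap between the diets. Slc35a3, a Golgi carrier of UDP-N-acetylglucosamine, fell by 0.37 on the log2 scale (FDR 0.00547). For the donor UDP-N-acetylglucosamine, of 5 tested genes 2 rose and 1 fell (median -0.04). Uap1l1 rose by 0.80 on the log2 scale (FDR 0.00579) and Gfpt1, which commits glucose to this route, by 0.32 (FDR 0.0434), while Pgm3 fell by 0.61 (FDR 0.0345).

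Of 8 genes listed for glucuronide breakdown and glucuronate use, 5 rose and 2 fell, with a median log2 fold change of 0.36. The 5 include the carboxylesterase gene Ces1e (log2 fold change 0.51, FDR 0.0133), named after its values were seen. Its enzyme does not itself split glucuronides or use glucuronate. Gusb, the beta-glucuronidase that undoes the reaction, rose from 31.7 ± 3.86 CPM to 41.7 ± 1.21 CPM (log2 fold change 0.40, FDR 0.00258). Cryl1, a dehydrogenase of the route from glucuronate to xylulose, rose by 1.16 on the log2 scale (FDR 8.59e-06). Rgn and Gulo, which take the branch to vitamin C, fell by 0.47 (FDR 0.000631) and 0.45 (FDR 0.00148). Of 4 exporters of glucuronides, 3 rose and 0 fell (median 0.64). Abcc3, which moves glucuronides from the hepatocyte to the blood, rose from 214 ± 69.2 CPM to 694 ± 91.8 CPM (log2 fold change 1.70, FDR 3.07e-05), Abcg2 rose by 0.40 (FDR 0.0158) and Abcc4 by 0.87 (FDR 0.0297).

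The Ugt1a genes, whose enzymes include the one that conjugates bilirubin, share their last exons, so reads there are not assigned to any of them. Of 5 tested, 2 rose and 0 fell (median 0.23). Ugt1a1, the bilirubin enzyme, went from 158 ± 38.7 CPM to 300 ± 43.5 CPM (log2 fold change 0.93, FDR 0.00136) and Ugt1a9 from 11.4 ± 4.27 CPM to 57.8 ± 9.31 CPM (log2 fold change 2.34, FDR 6.00e-06). When reads on shared exons were counted for each gene, 5 were called. The same reads then enter several genes, so these calls are not independent. On their own reads Ugt1a5, Ugt1a6a and Ugt1a6b had log2 fold changes of 0.23, 0.22 and -0.03 (FDR 0.365, 0.117 and 0.898).

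Of 14 regulators known for Ugt genes, 0 rose and 1 fell, with a median log2 fold change of -0.08. The 1 was Foxa3, a hepatic forkhead factor, at 53.1 ± 16.7 CPM in control and 33.2 ± 3.75 CPM in BIBB-515 mice (log2 fold change -0.68, FDR 0.0150). With DESeq2 the counts were 1 and 1, and the gene on the higher side was Nr1i2, which encodes PXR (111 ± 19.1 CPM in control and 136 ± 12.1 CPM in BIBB-515 mice, FDR 0.0658 with edgeR, named after its values were seen). Transcript levels of a receptor do not show its activity, which is usually read from its targets. Of 9 such reporter genes 5 rose and 0 fell (median 0.73). Cyp3a11, the reporter for PXR, rose by 3.24 on the log2 scale (FDR 2.31e-10), Cyp2b10, the reporter for CAR, by 3.98 (FDR 7.66e-05) and Cyp2c55, a target of both, by 5.98 (FDR 1.59e-09). Cyp1a2 rose by 0.73 (FDR 0.000324) and Nqo1, a target of NRF2, by 0.74 (FDR 0.00636). Cyp1a1, the other reporter for AHR, had a log2 fold change of 0.37 (FDR 0.441). The PPARA targets Cyp4a10 and Cyp4a14 had values of -0.08 (FDR 0.898) and -0.33 (FDR 0.438), and Gclc, the second target of NRF2, had 0.18 (FDR 0.330).

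Whole liver was sequenced, and a change in the number of cells of a type and a change in RNA per cell cannot be told apart in it. Hepatocyte markers were abundant, which fits the tissue label, but moved with the diet. Of 8 such markers 0 rose and 4 fell (median log2 fold change -0.30), and their summed level was between 143718 and 164223 CPM in control mice and between 108864 and 123584 CPM in BIBB-515 mice. Alb made up most of this sum, with means of 120094 CPM in control and 90923 CPM in BIBB-515 mice. The 4 that fell were Alb, Ttr, Serpina1c and Fgb, while Apoa1, Apob, Tat and Hnf4a were not called. The fall of these 4 is the opposite direction to the 3 risen members, and its part in their values was not tested. Of 7 Kupffer cell and macrophage markers, 6 sinusoidal endothelial, 5 bile duct and 4 lymphocyte markers tested, 0 were called by edgeR. Without adjustment 1 endothelial marker was lower and 1 bile duct marker higher at a p under 0.05, and DESeq2 called 1 bile duct marker. Of 7 stellate cell markers 2 were lower (summed 366 to 491 CPM in control and 361 to 454 CPM in BIBB-515 mice). Both intestine markers tested, Fabp2 and Lgr5, were lower too (list summed 72.5 to 149 and 65.6 to 88.8 CPM). Fabp2 made up most of that sum, with means of 111 CPM in control and 70.2 CPM in BIBB-515 mice. The rest of the intestine list did not reach the level for testing, with means of at most 0.482 CPM in either diet. No fat cell or kidney marker reached the level for testing, with sums of at most 0.362 CPM.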

How the data were processed

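Liver RNA-seq of 12 mice was analysed, 6 per diet, grouped by the sample labels. The authors deposited whole-number counts of reads per gene and per exon, made per the file headers with featureCounts from Subread 1.6.3 and a UCSC annotation of mm10, with no strand setting. Multi-mapping reads and reads over the exons of more than 1 gene are absent from the gene counts. The submitters' processing notes name STAR 2.5.3a. Tables of primary alignments, in which a read on overlapping genes counts for each gene, served as an alternative. Transcript tables were not used. Library preparation and read length are not given in the sources used here.

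Of 24062 genes, the 12481 that reached 1 CPM in 10% of samples (2 of 12) were kept. After TMM scaling, diet was tested without covariates by edgeR 4.0.16 (R 4.3.3, quasi-likelihood), and p-values were adjusted after Benjamini and Hochberg across all 12481 genes. Intervals are at the 95% level. Single genes and ratios were also compared by a two-sided exact permutation test over 924 labelings of log2 values with 0.5 CPM added (smallest p 0.00216). Exons with at least 10 reads in at least 6 mice were described. No pair of libraries of the same diet agreed within counting noise (lowest chi-square over degrees of freedom 12.1), and each was kept as its own sample, as the labels give it.

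The members and lists were chosen with earlier results of these data known. Named genes are the members, the other genes of their families, any gene between members (there was none), the 3 genes most correlated with each called member, all induction reporters, and up to 4 called genes per list by smallest p. A few of these are counted but not reported here by name. Promoters are from RefSeq (GRCm38.p6) and 50-base words and coding sequences from GENCODE vM21, aligned with Biopython 1.88. Protein sequences were not used here, so identity is per base. Alternatives were DESeq2 1.42.0, limma-voom (limma 3.58.1), other scalings and filters, the primary tables, 1 surrogate variable (sva 3.50.0), and leaving out each mouse.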

Additional observations from a re-analysis of the deposited data

How the results depend on the processing

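Ugt2b34, Ugt2b35 and Ugt2b36 stayed higher and past the threshold in all 20 other settings, 12 that left out a mouse and 8 that kept all mice. Their FDR was at most 0.0119, 0.0204 and 0.0127 with a mouse left out, and at most 0.0118, 0.0203 and 0.00567 in the other settings. The number of members called was 3 in the 8 settings with all mice and 3 to 4 with a mouse left out, the fourth being Ugt3a1 without control mouse 4. Members without overlap, counted in 5 of the settings with all mice, were 1 in each of them and 1 to 3 with a mouse left out, with 3 when control mouse 1 was left out. Of 197 fold changes of members under other settings, 0 reversed and 0 lost a call. The number of all genes called was 1489 to 2244 with all mice and 1199 to 1865 with a mouse left out. Ugt2b37, not called in any setting, had a log2 fold change of -0.54 with limma-voom and -0.41 with 1 surrogate variable, against -0.94 in the edgeR fit. The cause was not tested. Ugt2b38 had no value in 3 settings, where it missed the filter. The summed per-length level with the primary tables was 863 CPM per kilobase in control and 1019 CPM per kilobase in BIBB-515 mice. Genes called over the pathway lists were 29, against 31 with DESeq2 and 33 with the primary tables. No paired analysis was run, since the labels mark no pairs of mice between the diets. The paper states that mice shared cages, but the labels give no cage, so cage was not in the fit. Low counts limit Ugt2b38, and the spread between mice limits Ugt2b37.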

Other observations

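Sulfotransferases, which compete with glucuronosyltransferases for steroids and phenols, were measured in the same livers. Of 14 tested genes of this list, donor synthesis included, 4 rose and 1 fell, with a median log2 fold change of 0.26. Sult2a5 rose from 1.81 ± 0.744 CPM to 16.9 ± 9.65 CPM (SD, n = 6 each, log2 fold change 3.23, FDR 0.000732) and Sult2a2 from 80.3 ± 21.6 CPM to 244 ± 125 CPM (FDR 0.0106), both with overlap between the diets. Papss2, which makes the sulfate donor, rose from 327 ± 51.2 CPM to 466 ± 24.6 CPM (log2 fold change 0.51, FDR 0.00261) without overlap. Sult3a1 fell from 69.5 ± 32.6 CPM to 31.4 ± 5.67 CPM (log2 fold change -1.15, FDR 0.0128). The Sult2a genes are near copies of each other, so their single values are uncertain in counts that leave out reads with several places.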
